A study of Mus musculus with 4 samples.

Results

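The genes described here code for 9 RNA-binding proteins of neurons, namely *Rbfox1*, *Rbfox2*, *Rbfox3*, *Nova1*, *Nova2*, *Elavl2*, *Elavl3*, *Elavl4* and *Ptbp2*. They were chosen by name, as the neuronal Rbfox, Nova and Elavl families and *Ptbp2*, and their m6A peaks were taken by gene name from the 3 deposited peak tables. They are 9 of the 13558 genes named in these tables. They hold 39 of the 33556 peaks in CCI and 42 of the 34406 peaks in sham, and 7 of the 4812 rows in the table of differential peaks.

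The spinal cord came from C57BL/6J mice of 6 to 8 weeks of age, 7 days after surgery. The CCI group had chronic constriction injury, a model of neuropathic pain in which silk ligatures loosely constrict the sciatic nerve. The sham group had sham surgery. The methods of the study describe a sham only for spinal nerve ligation, as the same operation with the nerve neither tied nor cut. Both groups had the same strain, age and time point, and neither carried a transgene or received a further agent according to the labels. In MeRIP-seq, RNA fragments bound by an antibody against m6A (IP) are sequenced beside the unselected RNA (input), and each group had 1 IP and 1 input library. The number of mice behind a library is not given in the sources used here. The differences between CCI and sham given below therefore have no replicates behind them, and none was tested.

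Fold enrichment is the ratio of IP over input within a peak, as the authors computed it. It is not a level of mRNA, and without read counts in the tables the depth behind each value is unknown. In bulk tissue, fewer cells of a type and less RNA per cell cannot be told apart, which holds for every peak that was seen in 1 group alone.

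Rbfox proteins (the product of *Rbfox3* is the neuronal marker NeuN) bind UGCAUG in introns and 3′-UTRs and steer alternative splicing. Nova proteins bind clusters of UCAU-like motifs and regulate splicing of transcripts for synaptic proteins. The neuronal Elavl proteins (HuB, HuC and HuD) bind AU- and U-rich sequences and stabilise mRNA, and PTBP2 represses neuronal exons early in neuronal differentiation. m6A itself is a methyl mark on adenosine in mRNA that is laid down within a short motif around GGAC, often near stop codons and in 3′-UTRs.

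The tissue label was set against marker genes. At least 1 peak was found in both lists for 9 of 10 Hox genes of spinal levels (not *Hoxc9*), 5 of 6 neuronal genes (not *Nefl*) and all 4 genes each of astrocytes, oligodendrocytes and microglia. Over the paired peaks of these lists, the log2 ratio of the fold enrichment in CCI to that in sham had a median of -0.19 for the Hox genes (22 pairs) and -0.05 for neurons (14 pairs). It was -0.05 for astrocytes (11 pairs), 0.04 for oligodendrocytes (14 pairs) and 0.18 for microglia (12 pairs). The part of a shift in cell types in the results was not tested.

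Several 5′ peaks of these genes, or an exonic block of them, overlapped the window around an annotated transcript start. RefSeq promoter sequences (GRCm38.p6, 250 bases before to 50 after each start) were found for 8 of the 9 genes, not for *Rbfox2*, with 17 windows in all, and 7 of the windows overlapped a peak. The runs below are shown because they hold the edge of a 5′ peak or, in *Elavl4* and *Rbfox1*, where the peak has 2 exonic blocks, of the block at that start. They are 30 bases on the strand of the gene, and capitals mark the bases inside the peak.
*Elavl3*, both lists, chr9:22052009-22052038, minus strand: gcggcagtgcgacccAGAGCGCGGAGCGCG
*Elavl4*, both lists, chr4:110287513-110287542, minus strand: aaaaggggaagcttcGAGCCAATTTCAGCA
*Nova1*, both lists, chr12:46818915-46818944, minus strand: tgccccctccccagtGAGCACATCAGCCAC
*Nova2*, sham list, chr7:18925903-18925932, plus strand: gccggcgcggtgcacGGCCTCTTCACGGCC
*Rbfox1*, CCI list, chr16:7069820-7069849, plus strand: tgcagggttttgtttCCTTTCCCTCTCCGC
*Ptbp2*, sham list, chr3:119783609-119783638, minus strand: GAAGAGTggaagcagcctgagagcagcagg

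In *Elavl3* the first base of the peak was base 1 at the 1 start with a window, which lies inside the RefSeq span of the gene. In *Elavl4* and *Rbfox1* base 1 of a RefSeq transcript was the first base of the downstream block, and the other block of the peak lay further upstream. In *Nova2* the sham peak began at base 31, and in *Nova1* the peak began at base -162 from the 1 start with a window, which is still within the RefSeq span of the gene. In *Ptbp2* only 7 bases at the far edge of the window lay in the peak. The letters GGAC on the sense strand were present in 10 of the 17 windows, against 65.6% of all 32851 windows, and on the other strand in 13, against 66.1%. After the start they were present in 4 of the 17, against 18.9% of all windows. These 4 windows were of *Elavl2* and *Elavl4* and overlapped no peak. Several windows of *Elavl2* overlap each other, so the 17 windows are not separate places. None of the runs printed above holds GGAC, which says nothing of the rest of the peaks, whose sequence was not used here.

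These transcripts carried m6A peaks in both groups, with 1 exception. In sham all 9 genes had a peak and in CCI 8 of 9, all but *Ptbp2*, whereas over all RefSeq protein-coding symbols 51.5% had a peak in sham and 49.9% in CCI. These symbols were taken whatever their expression in spinal cord, so the shares are not of like sets of genes. Of the 25 related genes described below, 21 had a peak in sham and 22 in CCI. The genes differed widely among themselves, from 1 peak in *Elavl2* to 12 in *Nova2* in either list. The median gene with a peak had 2 peaks in either list. The median fold enrichment of the peaks of these genes was 8.18 in CCI (range 1.59 to 127) and 5.54 in sham (1.29 to 96.1), beside 5.73 and 5.70 over all peaks.

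**Figure D1:**
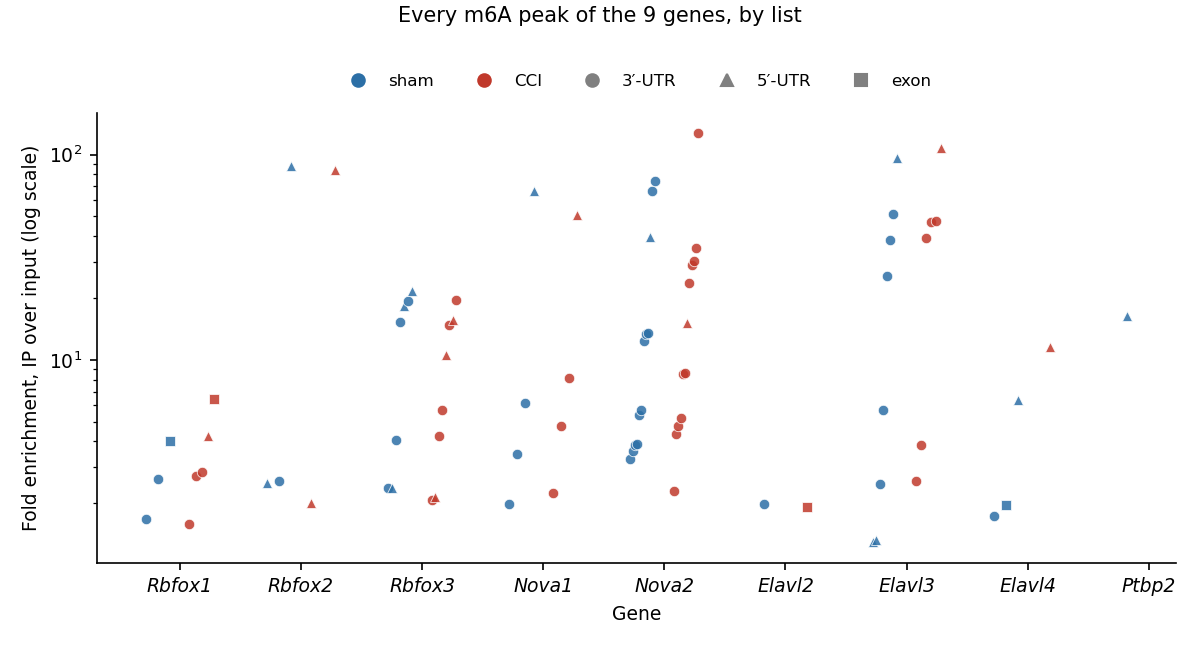
Fold enrichment of IP over input (log scale) of every m6A peak of the 9 genes, with sham peaks to the left and CCI peaks to the right above each gene. Each symbol is 1 peak and its shape gives the annotated region. *Nova2* holds 12 peaks in each list, *Elavl2* holds 1 in each list below 2, and *Ptbp2* holds a single sham peak of 16.3.

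Ordered by the strongest peak, the CCI list ran from *Nova2* (127), *Elavl3* (108), *Rbfox2* (84.4) and *Nova1* (50.6) to *Rbfox3* (19.5), *Elavl4* (11.5), *Rbfox1* (6.44) and *Elavl2* (1.91). In the sham list *Elavl3* (96.1), *Rbfox2* (88.3), *Nova2* (74.4) and *Nova1* (66.2) came before *Rbfox3* (21.7), *Ptbp2* (16.3), *Elavl4* (6.39), *Rbfox1* (4.04) and *Elavl2* (1.99). The same 4 genes thus led both lists. With 1 library per group, no spread tells whether neighbours in this order differ. None of the 8 genes had strongest peaks at least 2-fold apart between the lists, while 22.5% of the 11761 genes with peaks in both lists did.

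Counted by peak, most peaks of these genes lay in the 3′-UTR by the authors' annotation. In CCI this held for 27 of 39 peaks, 69.2% (exact 95% binomial interval 52.4 to 83.0%, counting error only), and in sham for 28 of 42, 66.7% (50.5 to 80.4%). Over all peaks the share was 49.8% in CCI and 48.9% in sham. *Nova2*, *Elavl3* and *Rbfox3* each held several of these peaks. When a gene was allowed 1 entry per region, the share was 35.7% of 14 entries in CCI and 47.1% of 17 in sham. Peaks of the 5′-UTR made up 10 of 39 in CCI (25.6%, all peaks 14.7%) and 12 of 42 in sham (28.6%, all peaks 16.1%). Only 2 peaks in each list were annotated to other exons, 5.13% and 4.76%, whereas over all peaks 35.5% and 35.1% were.

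The strength of the peaks followed the region. Peaks of the 5′-UTR of these genes had a median fold enrichment of 13.3 in CCI and 17.3 in sham, beside 8.51 and 8.21 over all 5′-UTR peaks. Peaks of the 3′-UTR had a median of 5.70 in CCI and 4.73 in sham, beside 5.92 and 5.81 over all. The strongest peak lay in the 5′-UTR in both lists for *Rbfox2*, *Nova1*, *Elavl3* and *Elavl4*, and in the 3′-UTR in both lists for *Nova2*.

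*Rbfox1*, a splicing regulator of synaptic and ion channel transcripts (ENSMUSG00000008658, chr16:5884793-7412480), had 5 peaks in CCI and 3 in sham, with fold enrichments from 1.59 to 6.44. Its strongest peak had 3 exonic blocks and was annotated to exon 2 of 13 (chr16:7070047-7277074, of which 329 bp are exonic), with a fold enrichment of 6.44 in CCI and 4.04 in sham. Of the genes with a peak, 72.6% had a strongest peak at least as high in CCI. All 3 paired peaks of *Rbfox1* were higher in CCI, by log2 ratios of 0.12 to 0.70. The 3′-UTR peaks were 2.85 in CCI and 2.63 in sham (ending at chr16:7409971) and 2.72 and 1.68 (ending at chr16:7411255). A 5′-UTR peak (chr16:6809222-7069957, 150 bp exonic, fold enrichment 4.26) and a 60 bp 3′-UTR peak (chr16:7411703-7411762, 1.59) were in the CCI list only. The first of these has 2 blocks, and the printed run holds the start of the block that lies further downstream.

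*Rbfox2*, the most widely expressed of the Rbfox genes (ENSMUSG00000033565, chr15:77078990-77308434), was dominated by 1 strong 5′-UTR peak of similar value in the 2 lists. It spanned chr15:77153626-77306634 in CCI (509 bp exonic, fold enrichment 84.4) and chr15:77153656-77306784 in sham (629 bp, 88.3), a log2 ratio of -0.07. Only 4.71% of genes in CCI and 3.92% in sham had a strongest peak at least as high. A weaker 5′-UTR peak ending at chr15:77153566 had 2.01 in CCI and 2.52 in sham. A 120 bp 3′-UTR peak (chr15:77080725-77080844, 2.58) was in the sham list only.

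*Rbfox3*, which codes for NeuN (ENSMUSG00000025576, chr11:118489760-118911597), had 8 peaks in CCI and 7 in sham, and only 3.31% of genes in CCI and 5.08% in sham had as many. Of its 7 paired peaks 2 were higher and 5 lower in CCI. The peak at the end of the transcript (starting at chr11:118489762) had 19.5 in CCI and 15.2 in sham. Beside it, sham had a single 750 bp peak (chr11:118490542-118491291, 19.3), where CCI had a pair of separate peaks, chr11:118490542-118490781 (240 bp, 5.70) and chr11:118490901-118491291 (391 bp, 14.8). The intervening bases belonged to a peak in sham and to none in CCI. The 5′-most peak was the only one of *Rbfox3* past 2-fold, with 10.5 in CCI (chr11:118907986-118911507) and 21.7 in sham (chr11:118909314-118911537), both 361 bp exonic, a log2 ratio of -1.05. Its log2 ratio lay at percentile 6.57 of all paired peaks, and its borders differed between the lists. The other 5′-UTR pairs differed less, with 15.7 in CCI and 18.2 in sham for the larger one and 2.14 and 2.38 for the smaller. The remaining 3′-UTR pairs had 2.07 and 2.37, and 4.24 and 4.05, and the strongest peak of the gene was a 3′-UTR peak in CCI and the 5′-most peak in sham.

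*Nova1*, a neuronal splicing factor of hindbrain and ventral spinal cord (ENSMUSG00000021047, chr12:46697895-46819480), had the same 4 peaks in both lists. Its strongest, at the 5′ end (chr12:46818659-46818929 in CCI and from 46818689 in sham), had 50.6 in CCI and 66.2 in sham, a log2 ratio of -0.39. The 3′-UTR peaks were all somewhat higher in CCI. The one nearest to the transcript end, 3684 bp upstream of it in CCI, had 2.25 in CCI and 1.98 in sham. The others had 4.75 and 3.46 in a 990 bp peak (chr12:46699938-46700927), and 8.18 and 6.17 in the peak starting at chr12:46711884. Ratios of the 5′-UTR pair and of the 3′-UTR pairs thus pointed in opposite directions, all within 2-fold. The peak starting at chr12:46711884 has 3 exonic blocks and lies 17367 bp upstream of the transcript end, although it is annotated to the 3′-UTR.

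*Nova2*, the Nova gene most enriched in neocortex (ENSMUSG00000030411, chr7:18925888-18965319), had the most peak rows of the 9 genes. Only 0.693% of genes in CCI and 0.589% in sham had at least 12 peaks. Its 24 rows fell into 8 separate sites, since several peaks overlap each other within a list, and such overlapping peaks share reads. By sites its lead was small, with 7 each in *Rbfox3* and *Elavl3*, and sites were not counted over all genes. Its CCI to sham ratios differed along the transcript, higher in CCI toward the 3′ end and lower in CCI upstream.

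From chr7:18961612 to the transcript end, 5 paired peaks were higher in CCI. At chr7:18964303-18964691 (389 bp) CCI had 127, where sham had 66.2 from 18964362 to the same end, a log2 ratio of 0.94. The overlapping pair that ends at chr7:18964726 had 23.7 in CCI and 13.4 in sham. At chr7:18963100-18963755 (656 bp) CCI had 29.0, where sham had 13.5 at chr7:18963166-18963585 (420 bp), a log2 ratio of 1.10 at percentile 92.9 of all paired peaks. This was the only pair of the 9 genes past 2-fold higher in CCI. A further CCI peak over the same place (chr7:18963107-18963764, 30.2) was not counted, since peaks were paired with their best partner only. Both CCI peaks overlapped sham peaks of 12.3 and 13.5. They also reached into weaker sham peaks (chr7:18963666-18963845, 3.83, and chr7:18963705-18963854, 3.90). Further upstream the ratio stayed within 2-fold, with 8.49 in CCI and 5.68 in sham (chr7:18962479-18963017 in CCI) and 5.18 and 3.27 (ending at chr7:18961881). Nearest to the transcript end, the CCI list alone had a pair of overlapping peaks (chr7:18964930-18965110, 4.78, and chr7:18964935-18965113, 4.33).

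Upstream, 3 paired peaks of *Nova2* were lower in CCI. The peak that joins chr7:18950540 to chr7:18958802 in CCI, of which 1347 bp are exonic, had 34.9 in CCI and 74.4 in sham, a log2 ratio of -1.09 at percentile 6.03. It also overlaps the annotated lncRNA gene *Gm38952*, and whether peak calling used strand is not stated, so its reads cannot be assigned to 1 of the genes. A small peak starting at chr7:18959160 in CCI had 2.30, and 3.59 in sham. At the 5′-UTR, CCI had 15.1 over 60 bp (chr7:18926008-18926067) and sham 39.5 over 240 bp (chr7:18925918-18926157, the border printed above), a log2 ratio of -1.39 at percentile 3.50. This was the largest CCI to sham difference of any paired peak of the 9 genes, and the peaks had very different lengths. Over the whole gene the direction depended on the measure, since the strongest peak gave a log2 ratio of 0.77 (127 in CCI and 74.4 in sham, at different places) and the mean weighted by exonic length gave -0.07.

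**Figure D2:**
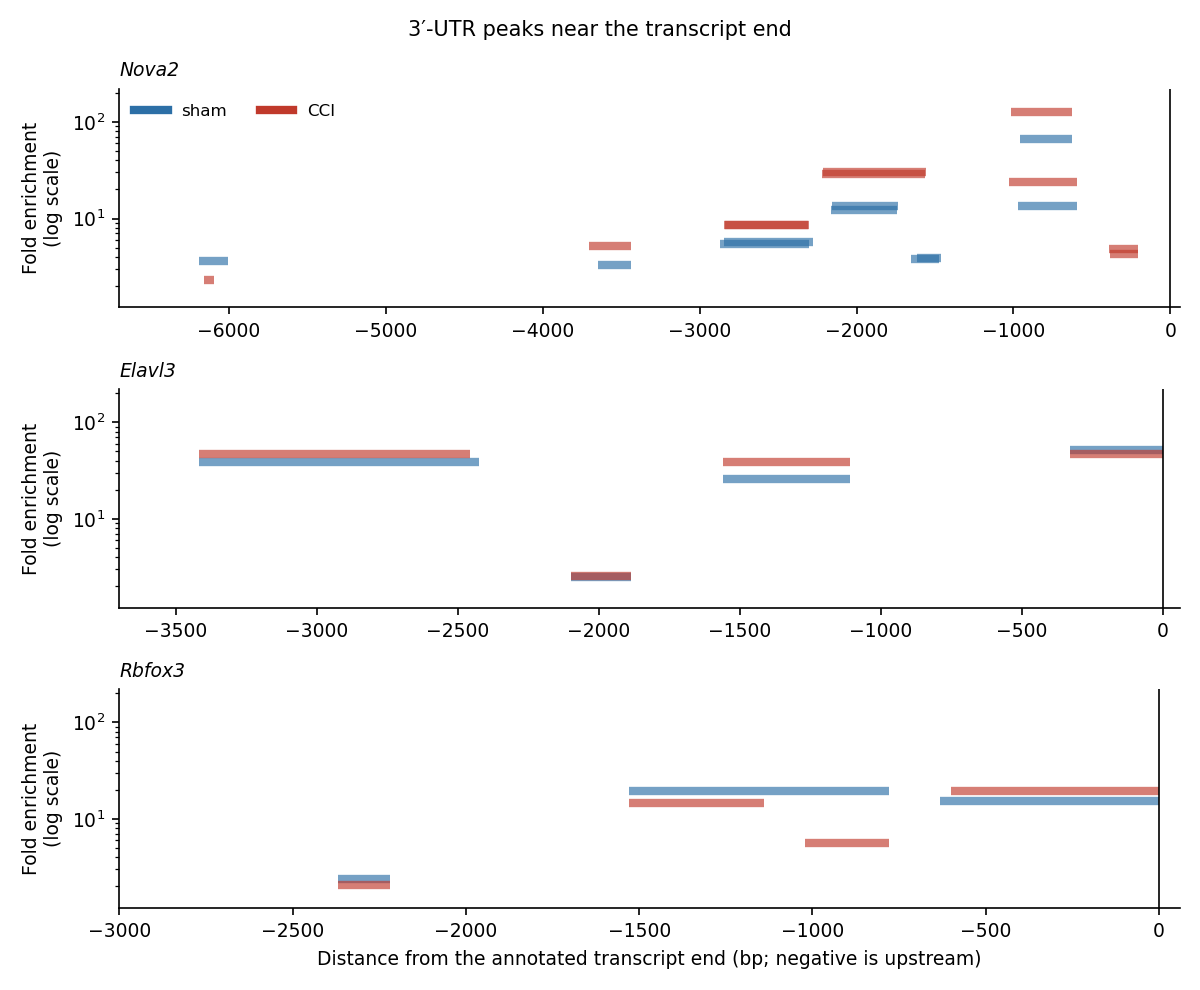
Fold enrichment (log scale) of the 3′-UTR peaks of *Nova2*, *Elavl3* and *Rbfox3* against the distance in bp from the annotated transcript end, in the direction of transcription. Each bar is 1 peak from its first to its last base, blue for sham and red for CCI, and peaks that reach further upstream than the axis are not drawn. The CCI bars of *Nova2* lie above the sham bars in 5 pairs toward the transcript end, and 1 sham bar of *Rbfox3* (19.3) lies over a pair of CCI bars (14.8 and 5.70).

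*Elavl2*, the gene of HuB (ENSMUSG00000008489, chr4:91211533-91400108), had a single weak peak. It had 1.91 in CCI (chr4:91253246-91253425) and 1.99 in sham (from 91253216), and 98.4% of genes in CCI and 97.8% in sham had a stronger or equal strongest peak. The authors' annotation put this one place in an exon in CCI and in the 3′-UTR in sham.

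*Elavl3*, the gene of HuC and a marker of postmitotic neurons (ENSMUSG00000003410, chr9:22015005-22052146), carried strong peaks at both ends of its transcript. Its 5′-UTR peak (chr9:22051783-22052023 in CCI and from 22051694 in sham) had 108 in CCI and 96.1 in sham, and only 3.20% and 3.44% of genes had a strongest peak at least as high. At the 3′ end, the last 330 bp of the transcript had 47.2 in CCI and 51.3 in sham. A 960 bp CCI peak (chr9:22017461-22018420) had 47.0, with 38.4 in sham. Between them, chr9:22016113-22016563 had 39.2 in CCI and 25.6 in sham, a log2 ratio of 0.61, the largest of the gene, and a 211 bp peak had 2.57 and 2.48. The peak ending at chr9:22026322 had 3.84 in CCI and 5.70 in sham, a log2 ratio of -0.57. In CCI it lies 9557 bp upstream of the transcript end although it is annotated to the 3′-UTR. A pair of weak overlapping 5′-UTR peaks was in the sham list only (chr9:22036755-22051634, 1.29, and chr9:22036721-22065735, 1.33), and the latter reaches into the neighbouring gene *Zfp653*.

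*Elavl4*, the gene of HuD (ENSMUSG00000028546, chr4:110203737-110351939), had 1 peak in CCI and 3 in sham. The 5′-UTR peak of 120 exonic bp (chr4:110287442-110290194) was at the same place in both lists, with 11.5 in CCI and 6.39 in sham, a log2 ratio of 0.85. Its log10 FDR in the peak call was -5.04 in CCI and -3.44 in sham, near the weak end for these genes. A 3′-UTR peak (chr4:110206206-110206325, 1.74) and a peak in exon 5 of 7 (chr4:110211429-110211519, 1.97) were in the sham list only.

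*Ptbp2*, the neuronal polypyrimidine tract binding protein (ENSMUSG00000028134, chr3:119718741-119784647), had a single peak, in sham, of 91 bp at the 5′-UTR (chr3:119783632-119783722). Its fold enrichment was 16.3 and its log10 FDR was -3.01, the weakest call among the peaks of the 9 genes. No peak of *Ptbp2* was in the CCI list, which does not show that the mark was absent there, since the depth is unknown.

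Peaks of the 9 genes were shared between the groups about as often as peaks in general. A peak of the other list overlapped 35 of the 39 CCI peaks (89.7%, exact interval 75.8 to 97.1%) and 36 of the 42 sham peaks (85.7%, 71.5 to 94.6%). The 4 CCI peaks without a partner compare with 12.3% of all CCI peaks, and the 6 sham peaks without one with 16.1% of all sham peaks. Put together, the peaks formed 39 separate sites, of which 31 were seen in both lists, 3 in CCI alone and 5 in sham alone. Sites of CCI alone were in *Rbfox1* and *Nova2*, and sites of sham alone were in *Rbfox2*, *Elavl3*, *Elavl4* and *Ptbp2*.

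Across the 32 paired peaks (each the best partner of the other by shared exonic bases) the fold enrichment in CCI lay close to that in sham on balance. The median log2 ratio was 0.09 (range -1.39 to 1.10), with 18 pairs higher and 14 lower in CCI, and the median over all 27380 pairs was 0.03. Only 1 pair was at least 2-fold higher in CCI, beside 8.59% of all pairs, and 3 were at least 2-fold lower, beside 7.25%. Of these 4 pairs 3 were in *Nova2* and 1 in *Rbfox3*. Without *Nova2* the median was 0.06 over 24 pairs, 1 of them 2-fold apart. By family the median was -0.11 over 12 Rbfox pairs, 0.43 over 12 Nova pairs and 0.11 over 8 Elavl pairs. The Nova pairs ranged from -1.39 to 1.10, and 8 of them were of *Nova2*, where some peaks overlap and share reads. As a mean weighted by exonic length, the log2 ratio was -0.044 for *Nova1* and -0.066 for *Nova2*.

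**Figure D3:**
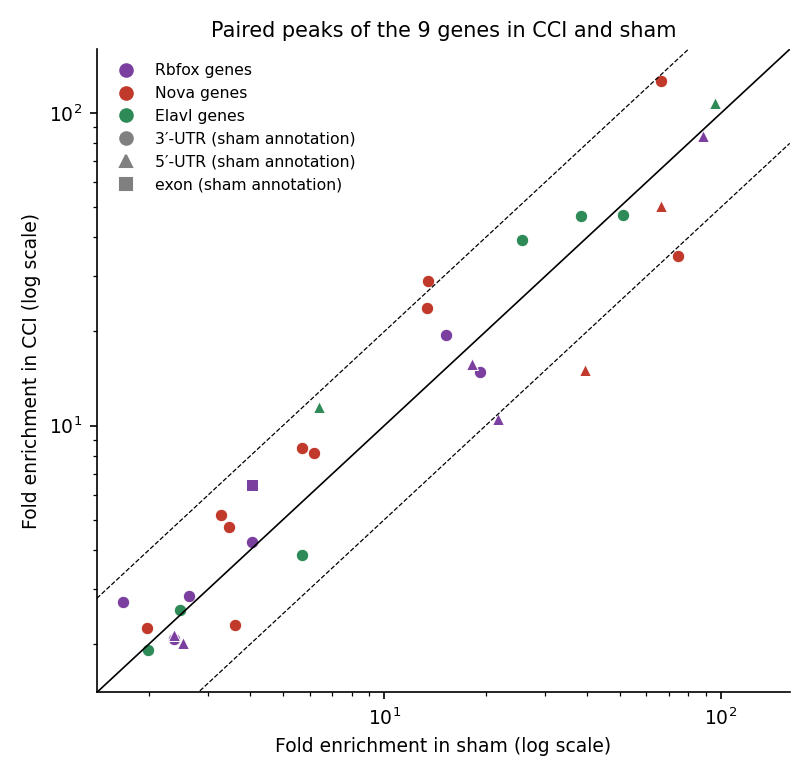
Fold enrichment of each of the 32 paired peaks in CCI against sham, both axes on a log scale, coloured by family and shaped by region. The solid line marks equal values and the dashed lines a 2-fold difference. Most symbols lie between the dashed lines, 1 *Nova2* symbol lies above the upper line, and 2 *Nova2* symbols and 1 *Rbfox3* symbol lie below the lower line.

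The direction of the ratios differed between pairs annotated to the 3′-UTR and pairs annotated to the 5′-UTR. These regions are labels, not distances to a transcript end. Several exonic blocks were present in 33.3% of the peaks of the 9 genes in either list. Over all peaks this held for 24.6% in CCI and 25.3% in sham. A labelled peak can lie far from the transcript end, as described above for *Nova1* and *Elavl3*. Of the 21 pairs in the 3′-UTR in both lists, 15 were higher and 6 lower in CCI (71.4% higher, median log2 ratio 0.29), beside 54.4% and 0.06 over all 13803 such pairs. Of the 9 pairs in the 5′-UTR in both lists, 2 were higher and 7 lower in CCI (22.2% higher, median -0.21), beside 46.1% and -0.07 over all 3981 such pairs. The exceptions among the 5′-UTR pairs were in *Elavl3* and *Elavl4*, and the 7 lower pairs were in *Rbfox2*, *Rbfox3*, *Nova1* and *Nova2*. The larger part of the 15 higher 3′-UTR pairs was in *Nova1* and *Nova2*. In the 25 related genes described below, 20 of 31 such 3′-UTR pairs were higher in CCI (64.5%, median 0.18). Of their 12 such 5′-UTR pairs, 7 were higher (58.3%, median 0.29). The excess in the 3′-UTR was thus not particular to the 9 genes. Lower 5′-UTR values were slightly the more frequent over all pairs too. They were not so in the related genes, whose 12 pairs include overlapping *Ptbp1* pairs of opposite direction. These are counts of a few peaks in 1 library per group, and peaks of 1 gene share their transcript, so the counts describe these libraries only.

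**Figure D4:**
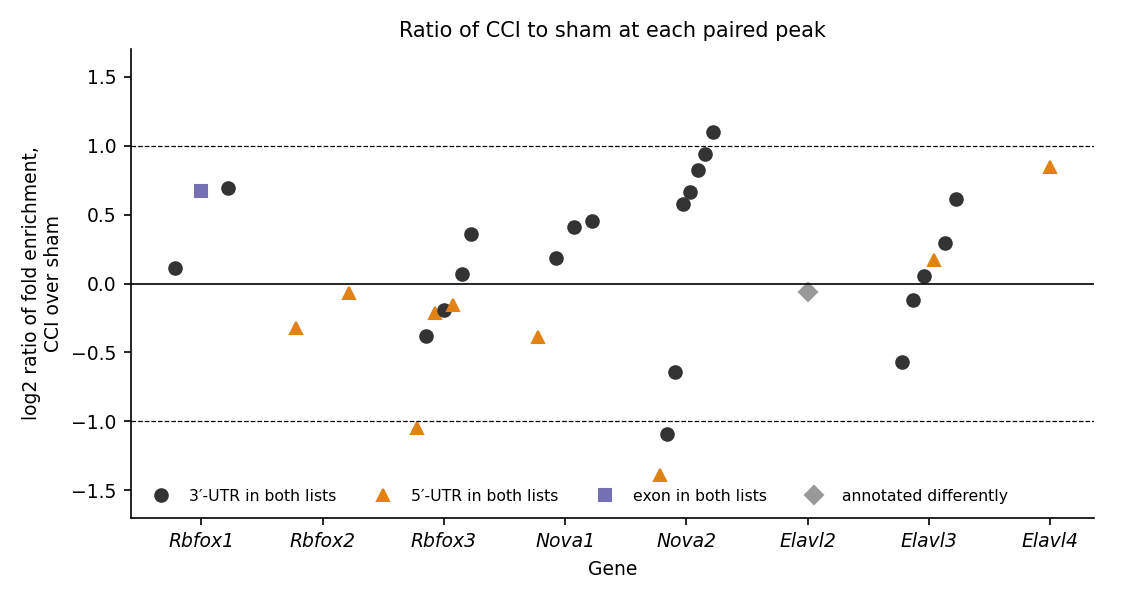
Log2 of the fold enrichment in CCI over that in sham for each paired peak, by gene (*Ptbp2* has no pair), with symbols for the annotated region. The solid line marks no difference and the dashed lines 2-fold. Circles (3′-UTR) lie above 0 in 15 of 21 pairs and triangles (5′-UTR) below 0 in 7 of 9.

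The deposited table of differential peaks listed 4 of the 9 genes, beside 25.3% of the 13558 genes, with 2 rows each for *Elavl3*, *Nova2* and *Rbfox3* and 1 for *Rbfox1*. Of the 7 rows, 6 lay in the 3′-UTR. The *Nova2* rows (chr7:18964321-18964726 and chr7:18964332-18964691) cover the pairs described above with 23.7 in CCI and 13.4 in sham, and 127 and 66.2. The *Elavl3* rows (chr9:22017461-22018450 and, in the 5′-UTR, chr9:22051723-22052023) cover the pairs with 47.0 and 38.4, and 108 and 96.1. The *Rbfox3* rows (chr11:118490542-118490811 and chr11:118490871-118491291) lie where the 1 sham peak stood over a pair of CCI peaks, and the *Rbfox1* row (chr16:7411076-7411255) lies on the pair with 2.72 and 1.68. Listed places were thus higher in CCI in *Nova2*, *Elavl3* and *Rbfox1* by the fold enrichments of the lists. In *Rbfox3* the row from chr11:118490871 lies on a pair lower in CCI (14.8 in CCI and 19.3 in sham). At the row from chr11:118490542 the CCI peak (5.70) was in no pair. The sham value of 19.3 is that of a 750 bp peak over both rows, so no direction was read there. None of the 4 pairs past 2-fold overlapped a row of this table.

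A list of 25 other RNA-binding regulators of splicing and mRNA fate was set beside the 9 genes. Of these, 22 had a peak in CCI and 21 in sham, and 7 had a row in the differential table. *Mbnl3*, of the muscleblind splicing factors, and *Fxr1*, a homologue of *Fmr1*, had no peak in either list. Over 56 pairs the median log2 ratio was 0.18 (range -4.26 to 2.34), with 35 pairs higher and 21 lower in CCI. At least 2-fold apart were 7 pairs higher and 3 lower in CCI, so the range was wider than among the 9 genes. The strongest peaks were those of *Celf4* (5410 in CCI and 2020 in sham), *Qk*, a regulator of myelin transcripts (273 and 444), and *Fxr2* (28.0 and 109). The widest ratios lay in 5′-UTRs, of *Khdrbs3* (2.37 in CCI and 45.3 in sham), of *Ptbp1*, the non-neuronal counterpart of *Ptbp2* (17.7 and 3.49), and of *Fmr1* (33.9 and 8.13). The *Khdrbs3* peaks differed in their borders and had a fraction of only 0.39 of their joint exonic bases in common. Another 5′-UTR peak of *Khdrbs3* in CCI, in no pair, had 16.7. By the strongest peak of each list, *Khdrbs3* thus had 16.7 in CCI and 45.3 in sham, a log2 ratio of -1.44.

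By the number of peaks and the strongest fold enrichment in both lists, the genes of this list nearest to *Nova2* were *Srrm4*, *Fxr2* and *Srrm3*. The measure is the sum of the absolute log2 differences in these 4 values, over the 2 lists, and it was 4.29 for both *Srrm4* and *Fxr2* and 5.53 for *Srrm3*. *Srrm4*, an activator of neuronal microexons, had 7 peaks in both lists and a strongest peak of 44.5 in CCI and 32.0 in sham. *Srrm3* had 7 peaks in CCI and 5 in sham, with 14.2 and 59.3. The order of *Srrm4* and *Fxr2* is not distinguishable at these values.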

How the data were processed

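MeRIP-seq of spinal cord was analysed, with 1 IP and 1 input library each for CCI and sham, grouped by the sample titles. The submitters' processing notes name GRCm38, fastp, HISAT2, HOMER and ChIPseeker, with no versions. The methods of the study name Cutadapt, bowtie and MACS2, and the column names of the tables are those of exomePeak output. The authors' fold enrichment, as deposited, is a ratio of IP to input, and the deposited p-value of each peak tests IP against input. Their log10 false discovery rate was treated as a deposited score, since some values are given as minus infinity. Peak borders, exonic block sizes and the annotated region were used as deposited. The differential table also holds the authors' log2 fold change, p-value and false discovery rate of CCI against sham, which were not used. Directions come from the fold enrichments of the CCI and sham lists.

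Peaks overlapped where their exonic blocks had 1 bp or more in common, and were paired where each was the other's best partner by shared bases. Pairs at least 2-fold apart were counted in place of a test. Exact (Clopper-Pearson) 95% intervals cover counting error only, and depth is unknown. Overlapping peaks of a gene formed 1 site. Pairing was tested on simulated data. The 9 genes and all lists were chosen with earlier results of these data known. All 9 genes are named. Of the list of related genes, the text names the 3 with the highest mean strongest peak, the 3 with the largest ratio of a pair, those with no peak, and the 3 nearest to the gene with the most peaks. The alternatives covered peak filters, overlap, fold, centring and the unit of counting. All 9 names are RefSeq symbols of GRCm38.p6, the source of gene spans and promoter windows, and no other genome sequence was used. Scripts ran under Python 3.11.15 with matplotlib 3.10.9, scipy 1.17.1, pandas 2.3.3 and numpy 2.4.6. The result of 1 further list of marker genes is not reported here.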

Additional observations from a re-analysis of the deposited data

How the results depend on the processing

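Of 48 alternative values, 9 moved beyond the limits set for them. Centring on the median of all genes and a false discovery rate below 0.01 could change nothing, since that median was 0.0 and every peak of the 9 genes passed. As a mean weighted by exonic length in place of the strongest peak, the log2 ratio of CCI to sham was 0.30 for *Elavl3*, 1.72 for *Elavl4*, -0.044 for *Nova1*, -0.066 for *Nova2* (from 0.77, a change of sign), 0.43 for *Rbfox1* and -0.33 for *Rbfox3*. The *Elavl4* value includes the weak peaks of sham alone, and the cause of the other shifts was not tested. At 1.5-fold, 8 pairs were higher in CCI and 4 lower, beside 18.8% and 16.4% of all pairs. With 1 entry per gene and region, the 3′-UTR share was 35.7% in CCI and 47.1% in sham, so it was no longer the larger part of the entries. No share over all genes was computed in this unit. A fold enrichment of at least 2 left 7 of the genes with a peak in CCI and 8 in sham. No paired analysis was possible because CCI and sham had 1 library of each kind, and for the same reason no replicate could be left out. The depth, the mice per library and the use of strand are unknown, and the peak borders differ between the lists.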

Other observations

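Among the related genes, some had peaks in 1 list only, and they are named here after their values were seen. *Celf6*, of the CELF family of splicing and translation regulators, had 4 peaks in sham (the strongest 18.6) and none in CCI. *Elavl1*, the gene of the ubiquitous HuR, had 1 peak in CCI (1.67) and none in sham, and *Khdrbs2*, the gene of the neuronal splicing factor SLM1, had 1 in CCI (9.90) and none in sham.

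*Ptbp1* had 5 peaks in each list and a strongest peak of 17.7 in CCI and 18.6 in sham, both in the 5′-UTR. Its overlapping 5′-UTR pairs gave opposite directions. The pair at chr10:79854371-79854851 in CCI had 17.7 in CCI and 3.49 in sham, and the pair at chr10:79854375-79854836 in CCI had 5.91 and 18.6. The sham partners of these pairs lay at chr10:79854551-79854881 and chr10:79854346-79854495.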
